A study of Homo sapiens with 6 samples.

Results

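The epidermal growth factor (EGF) receptor family and its ligands were examined in SKOV3 cells with silenced KLF5. The set holds 4 receptor genes (EGFR, ERBB2, ERBB3 and ERBB4) and 6 ligand genes (AREG, EREG, HBEGF, TGFA, NRG1 and BTC), and was picked by gene name from the 29185 genes of the deposited table, with earlier results of these data known. SKOV3 cells, a long-established line from human ovarian cancer, are known for amplification of ERBB2, the gene for HER2. DNA copy number was not measured here. The sh-KLF5 group (3 libraries) came from a SKOV3 line stably transfected with a lentiviral pLKO vector carrying a hairpin RNA against KLF5, which encodes a zinc finger transcription factor of the Krüppel-like family. The sh-NC group (3 libraries) came from the control SKOV3 line, whose genotype the labels give as WT. The sample titles call it NC, and the study does not state whether it carried a vector or hairpin or was selected with puromycin. Stable lines were selected with puromycin according to the study's methods, which describe no single clone, and no other treatment of the sequenced cells is labelled. Poly(A) RNA was sequenced, and each gene has a normalized count per library, which is its read count divided by 1 size factor for that library. Whether the 3 libraries of a group came from separate cultures is not stated, so that p-values measure only the spread between these libraries.

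ERBB receptors are tyrosine kinases of the cell surface that signal as pairs. Binding of an EGF-like ligand lets a receptor pair up, and the phosphorylated tails then recruit adaptors that feed the RAS-ERK and PI3K-AKT pathways. ERBB2 has no known ligand and serves as a partner for the other receptors, while ERBB3 has a weak kinase of its own and is a strong activator of PI3K when paired with ERBB2. The ligands are made as membrane-bound precursors and are cut free by ADAM proteases.

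The recovered totals lay between 15852319 and 17543896 reads per library, and 22899 to 24753 genes were detected. KLF5 on chromosome 13 was measured first as a check of the labels. In the sh-NC libraries it had 4371, 4425 and 4494 normalized counts, against 1745, 1439.9 and 1436 in sh-KLF5, which left 34.8% of the control mean (log2 fold change -1.53, adjusted p 2.47e-07 by limma with Benjamini-Hochberg adjustment). No library repeated another within the noise of counting. Library 1 of sh-KLF5 stood most apart from its group, with 26.4 and 34.3 as chi-square over degrees of freedom against libraries 2 and 3. Results that turn on this library are given with and without it. Of the 7 epithelial markers of ovarian carcinoma in the table, none was at 3 reads or fewer, and their summed normalized counts were 52173 to 63831 in sh-NC and 27206 to 37182 in sh-KLF5, with 5 of 7 lower at an adjusted p under 0.05. The keratin genes KRT7 and KRT8 made up most of these sums (means of 32104 and 21816 in sh-NC). PAX8 (log2 fold change -0.25, limma adjusted p 0.407) and EPCAM (-0.03, adjusted p 0.954) did not pass. The leukocyte markers PTPRC and LYZ and the endothelial marker CDH5 were at 3 reads or fewer in every library. VWF had 3 to 10 reads. The 5 leukocyte and endothelial markers in the table summed to 66.1 to 88.1 in sh-NC and 35.1 to 73.7 in sh-KLF5. PECAM1 made up most of these sums, with 59.6, 70.9 and 79.6 normalized counts in sh-NC and 45.9, 64.0 and 31.1 in sh-KLF5 (limma adjusted p 0.172). For 5 fibroblast markers the sums were 385 to 619 and 116 to 237, with 3 of the 4 tested lower in sh-KLF5 at a limma adjusted p under 0.05. The exception was COL1A1 (log2 fold change 0.30, limma adjusted p 0.539). Over all tested genes, 6.85% were lower at this threshold. The part of these shifts in the results below was not tested, and in bulk RNA fewer cells of a type and less RNA per cell cannot be told apart.

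Promoter sequence is shown for AREG, EREG and EGFR, because AREG and EREG are neighbours on chromosome 4 with estimates of opposite sign after KLF5 silencing and EGFR is the receptor to which both bind. Each line gives the 250 bases before the start of the gene in RefSeq (GRCh38.p14, 5′ to 3′ on the strand of the gene). The capitals mark CACCC, the core of the CACCC box recognized by Krüppel-like factors, searched as CACCC on the strand shown and as GGGTG for the other strand.
AREG: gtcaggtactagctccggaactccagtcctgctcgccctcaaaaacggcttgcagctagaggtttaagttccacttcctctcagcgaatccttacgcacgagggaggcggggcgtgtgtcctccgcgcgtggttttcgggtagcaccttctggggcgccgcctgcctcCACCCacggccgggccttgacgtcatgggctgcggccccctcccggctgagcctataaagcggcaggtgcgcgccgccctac
EREG: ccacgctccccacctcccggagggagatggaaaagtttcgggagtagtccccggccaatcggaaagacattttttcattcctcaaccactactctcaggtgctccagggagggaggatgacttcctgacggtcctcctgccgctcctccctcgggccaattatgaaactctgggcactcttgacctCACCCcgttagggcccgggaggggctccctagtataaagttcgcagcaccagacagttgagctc
EGFR: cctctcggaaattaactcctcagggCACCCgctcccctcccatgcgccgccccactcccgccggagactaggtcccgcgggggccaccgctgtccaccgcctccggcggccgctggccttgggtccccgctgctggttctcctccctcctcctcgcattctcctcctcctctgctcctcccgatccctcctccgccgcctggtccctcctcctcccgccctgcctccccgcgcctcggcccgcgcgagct
The AREG window is chr4:74444886-74445135, the EREG window chr4:74364895-74365144 and the EGFR window chr7:55018767-55019016, all on the plus strand, and the windows of AREG and EREG include 2 exonic bases of the gene model used for counting. Each window held 1 match to CACCC, with its first base 82 bases before the start of AREG, 64 bases before EREG and 225 bases before EGFR. The GC box motif GGGCGG, searched on both strands, occurred 1 time in the AREG window, 0 times in the EREG window and 2 times in the EGFR window, and the windows were 65.2%, 58% and 73.6% GC. Among the other members with a RefSeq window, CACCC matched 4 times in BTC, 2 times in TGFA and 0 times in ERBB2, ERBB4 and HBEGF. Of the 250 bases, 163 were exonic in the gene model for BTC, 189 for TGFA, 180 for ERBB2, 39 for ERBB4 and 28 for HBEGF. All 4 BTC matches (133, 121, 105 and 53 bases before the RefSeq start) lay in that exonic part. As background, 54.7% of 35116 promoters of this length held at least 1 CACCC and 2.91% held 4 or more, and 42.6% held GGGCGG. A match describes letters only and is not a bound site.

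Of the 10 members, 9 had enough reads to be tested. After KLF5 silencing, ERBB3 and AREG fell and EGFR rose. ERBB2 had an adjusted p above 0.05, as did EREG, HBEGF, TGFA, NRG1 and BTC. At an adjusted p under 0.05 (limma, Benjamini-Hochberg over 15803 genes), 1 member was higher and 2 were lower, where 6.04% of all tested genes were higher and 6.85% were lower. When a log2 fold change past 1 was also required, 1 member was lower and none was higher, against 3.37% and 1.9% of all genes (5.28% in either direction). That count of none was also 0 with edgeR, with DESeq2 and at an unadjusted p under 0.05. At an unadjusted p under 0.05 without a fold limit 7 of the 9 passed, 4 of them higher and 3 lower, against 26.2% of all genes. The groups did not overlap for 5 of the 9 members, against 31.3% of all genes. Of these members 2 were higher and 3 lower, whereas 15.4% of all genes were separated upward and 15.9% downward. The median log2 fold change of the 9 was 0.30, beside -0.00 for all tested genes.

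**Figure D1:**
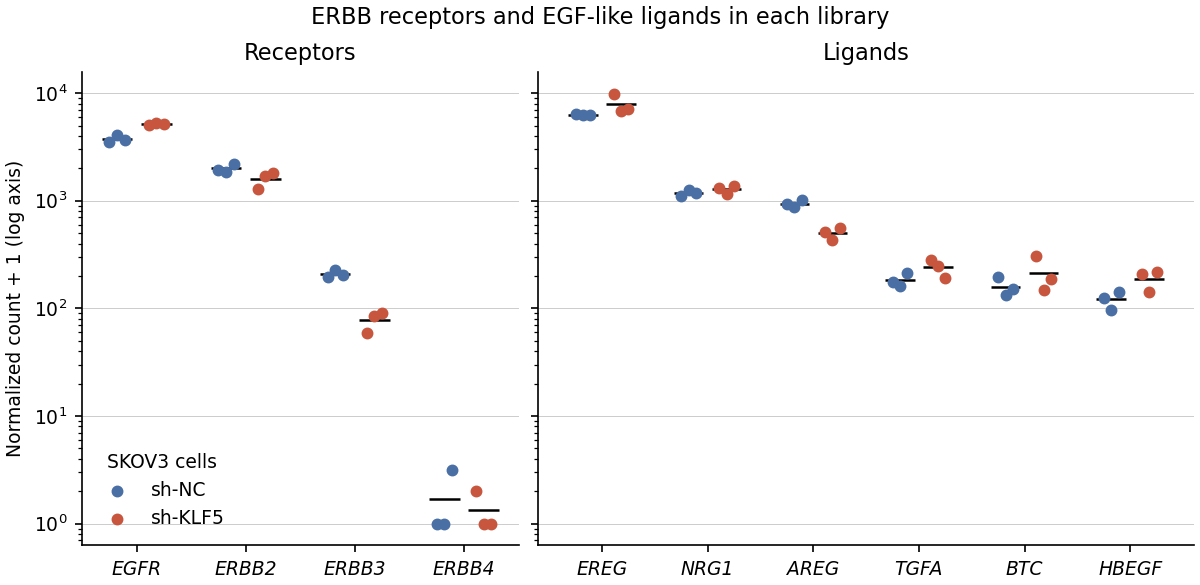
Normalized count plus 1 (log axis) of each receptor and ligand gene in the 3 sh-NC and the 3 sh-KLF5 libraries, 1 point per library. The groups are separated for EGFR, ERBB2, ERBB3, AREG and EREG, and overlap for HBEGF, TGFA, NRG1 and BTC.

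Among the receptors, EGFR (ENSG00000146648, chromosome 7, 55019021 to 55211628, plus strand) is the receptor for EGF, amphiregulin and epiregulin. EGFR had 3546, 4057 and 3691 normalized counts in sh-NC and 5099, 5262 and 5167 in sh-KLF5. Every sh-KLF5 library was above every sh-NC library, and the spread within sh-KLF5 was small. The mean rose from 3765 ± 263 to 5176 ± 81.8 (SD, n = 3 each), with a log2 fold change of 0.46 (SE 0.11, 95% interval 0.23 to 0.69) and an adjusted p of 0.00952 by limma. This call was lost without sh-NC library 1, where the log2 fold change was 0.42 with an adjusted p of 0.0888. The antisense gene EGFR-AS1 covers 1.49% of the exonic bases of EGFR, and whether counting used the strand is not given in the sources used here.

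ERBB2 (ENSG00000141736, chromosome 17, 39687914 to 39730426, plus strand) had normalized counts of 1938, 1836 and 2207 in sh-NC and 1295, 1685 and 1799 in sh-KLF5. All 3 sh-KLF5 libraries were below all 3 sh-NC libraries, and library 1 of sh-KLF5 was the lowest. The means were 1993 ± 192 and 1593 ± 264, a log2 fold change of -0.33 (SE 0.13, 95% interval -0.62 to -0.05). The difference did not pass the limma test across all genes (adjusted p 0.124), and without library 1 of sh-KLF5 it was -0.19. Antisense genes (MIEN1 and PGAP3) overlap 7.41% of the exonic bases of ERBB2.

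ERBB3 (ENSG00000065361, chromosome 12, 56076799 to 56103505, plus strand) encodes the neuregulin receptor that pairs with ERBB2. It was measured at 196, 228 and 204 normalized counts in sh-NC and at 58.1, 84.4 and 90.2 in sh-KLF5. The highest sh-KLF5 library was well under the lowest sh-NC library. The mean fell from 209 ± 16.7 to 77.6 ± 17.1, or 37.1% of the control, with a log2 fold change of -1.44 (SE 0.20, 95% interval -1.87 to -1.01, limma adjusted p 0.000117). Leaving out any single library gave log2 fold changes from -1.56 to -1.25. ERBB3 was the 1 member past both the fold and the p threshold.

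ERBB4, the other neuregulin receptor, had 0, 0 and 2 reads in sh-NC and 1, 0 and 0 reads in sh-KLF5. A count of 0 allows up to 3 reads, or 0.171 to 0.182 CPM (reads scaled to the library total) at the depths of the libraries with 0 reads. No expression of ERBB4 was thus detectable in those libraries, and no fold is given. Such limits cover counting error only.

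Among the ligands, AREG (ENSG00000109321, chromosome 4, 74445134 to 74455009, plus strand) encodes amphiregulin, a ligand of EGFR. AREG had 938, 869 and 1010.1 normalized counts in sh-NC and 507, 428 and 562 in sh-KLF5. The groups were well separated. The mean fell from 939 ± 70.5 to 499 ± 67.6, or 53.1% of the control (log2 fold change -0.92, SE 0.13, 95% interval -1.20 to -0.64, limma adjusted p 0.000151). Without library 3 of sh-KLF5 the log2 fold change was -1.01, and AREG then also passed the fold threshold.

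EREG (ENSG00000124882, chromosome 4, 74365143 to 74388751, plus strand) encodes epiregulin, which binds EGFR and ERBB4. It had 6383, 6264 and 6322 normalized counts in sh-NC and 9862, 6794 and 7069 in sh-KLF5. All sh-KLF5 libraries were above the narrow range of sh-NC, but library 1 of sh-KLF5 was far above the other two. The means were 6323 ± 59.8 and 7908 ± 1698, with a log2 fold change of 0.30 (SE 0.14, 95% interval 0.01 to 0.59) that did not pass the limma test (adjusted p 0.171). Without library 1 of sh-KLF5 it was 0.13.

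HBEGF encodes the heparin-binding ligand of EGFR and ERBB4 and lies on chromosome 5 (140332843 to 140346631, minus strand). The 3 sh-NC libraries had 125, 96.6 and 140.1 normalized counts of HBEGF and the sh-KLF5 libraries 206, 139.7 and 215. Libraries 1 and 3 of sh-KLF5 were above all controls, and library 2 fell just within the control range. The means were 120.5 ± 22.1 and 187 ± 40.9, with a log2 fold change of 0.62 (SE 0.21, 95% interval 0.18 to 1.06, limma adjusted p 0.0611). HBEGF passed 0.05 with DESeq2 (adjusted p 0.039), with limma on the unfiltered table (0.033) and with limma without library 2 of sh-KLF5 (log2 fold change 0.81, adjusted p 0.0252).

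TGFA encodes transforming growth factor alpha, another EGFR ligand, on chromosome 2 (70447280 to 70554193, minus strand). It was measured at 174, 162 and 211 normalized counts in sh-NC and at 282, 245 and 193 in sh-KLF5. The groups overlapped, since library 3 of sh-KLF5 was below library 3 of sh-NC. The means were 182 ± 25.8 and 240.1 ± 45.1 (log2 fold change 0.39, SE 0.18, 95% interval 0.01 to 0.77, limma adjusted p 0.18). Without library 1 of sh-KLF5 the log2 fold change of TGFA was 0.26 (limma adjusted p 0.342).

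BTC encodes betacellulin, a ligand of EGFR and ERBB4, on chromosome 4 (74744759 to 74794686, minus strand). In sh-NC, BTC had 193, 132 and 151 normalized counts, compared with 305, 147 and 187 in sh-KLF5. Only library 1 of sh-KLF5 was above the control range. The means were 158.5 ± 31.1 and 213 ± 82.1 (log2 fold change 0.37, SE 0.23, 95% interval -0.12 to 0.87, limma adjusted p 0.34), and without library 1 of sh-KLF5 the log2 fold change was 0.08.

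NRG1 encodes neuregulin 1, a ligand of ERBB3 and ERBB4. It had 1103, 1254 and 1171 normalized counts in sh-NC and 1303, 1166 and 1379.7 in sh-KLF5. The groups overlapped, with means of 1176 ± 75.6 and 1283 ± 108. The log2 fold change was 0.12 (SE 0.12, 95% interval -0.12 to 0.37, limma adjusted p 0.548), so that a rise of more than 0.37 on the log2 scale lies outside the interval.

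**Figure D2:**
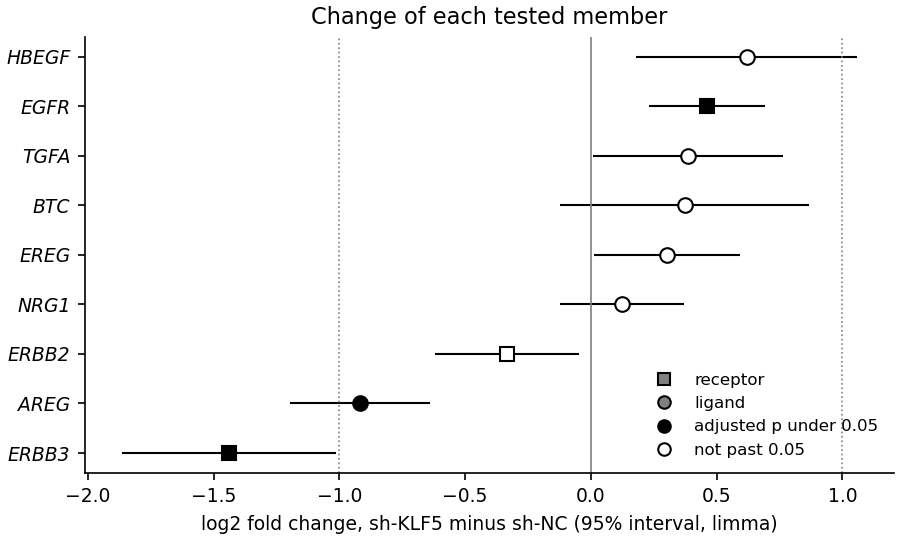
Log2 fold change (sh-KLF5 minus sh-NC) of the 9 tested members with its 95% interval from limma. Filled symbols (ERBB3 and AREG below 0, EGFR above 0) have an adjusted p under 0.05. The intervals of NRG1 and BTC include 0, and HBEGF has the largest positive estimate, 0.62, with an interval from 0.18 to 1.06.

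Levels of different genes were compared per kilobase of exonic sequence (normalized count divided by exonic length). In sh-NC the order was EREG (1106 ± 10.5), AREG (569.7 ± 42.8), EGFR (301 ± 21.0), ERBB2 (193 ± 18.6), NRG1 (104 ± 6.68), BTC (56.3 ± 11.04), HBEGF (39.9 ± 7.31), TGFA (36.7 ± 5.19) and ERBB3 (23.1 ± 1.84). Of these neighbours only HBEGF and TGFA overlapped between libraries. In sh-KLF5, EGFR at 413 ± 6.53 per kilobase stood above AREG at 303 ± 41.0, so that AREG and EGFR exchanged places. EREG remained the highest at 1383 ± 297 and ERBB3 the lowest of the tested members at 8.58 ± 1.90, while the neighbours from NRG1 to TGFA overlapped. Among all 15803 tested genes in sh-NC, EREG ranked 444 per kilobase, AREG 1157, EGFR 2540 and ERBB2 4042. ERBB2 was thus at the 74.4th percentile in a line known for its amplification. With the length of the longest transcript in place of all exonic bases, its level was 404 per kilobase (rank 2644, 83.3rd percentile) and overlapped that of EGFR, 383 per kilobase.

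As a share of the summed receptor level per kilobase, EGFR made up 57.5%, 61.5% and 55.5% in sh-NC and 75.5%, 70.9% and 69.1% in sh-KLF5. The share of ERBB2 was 38.1%, 33.7% and 40.2% in sh-NC and 23.3%, 27.5% and 29.2% in sh-KLF5, and that of ERBB3 was 4.24% to 4.78% against 1.19% to 1.67%. The sum itself was 492.5 to 531 in sh-NC and 539 to 597 in sh-KLF5. With the longest transcript as the length, chosen as an alternative after seeing the data, the share of EGFR was 43.8% to 50.1% in sh-NC and 58.1% to 65.6% in sh-KLF5, that of ERBB2 was 45.2% to 52.2% and 33.2% to 40.3%, and the sums overlapped. Among the 6 ligands, EREG made up 56.3% to 59.4% in sh-NC and 65.9% to 72.5% in sh-KLF5, while AREG made up 28.6% to 31.2% in sh-NC and 12.9% to 18.2% in sh-KLF5. The ligand sums overlapped, with 1845 to 1965 in sh-NC and 1699 to 2381 in sh-KLF5.

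**Figure D3:**
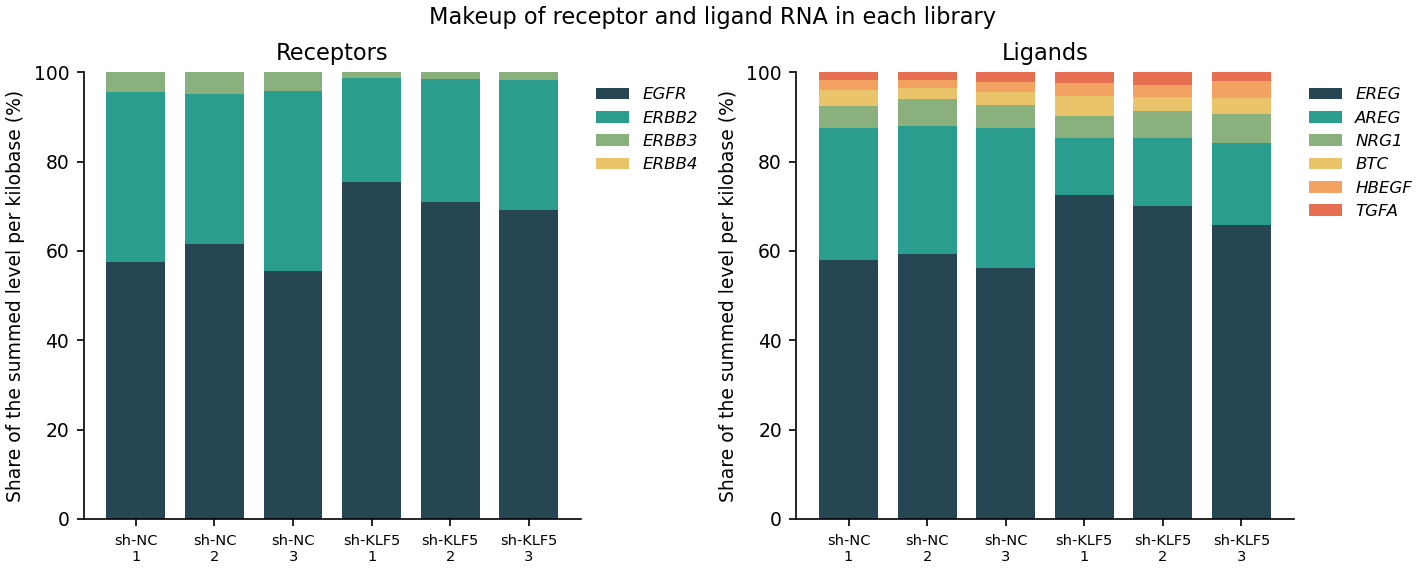
Share of each gene in the summed level per kilobase of the receptors (left) and of the 6 ligands (right), as percent, 1 bar per library. EGFR is at most 61.5% of receptor RNA in sh-NC and at least 69.1% in sh-KLF5, and AREG is at least 28.6% of ligand RNA in sh-NC and at most 18.2% in sh-KLF5.

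Within each library, 3 ratios of levels per kilobase were formed, chosen after the values had been seen. AREG to EREG was 0.51, 0.481 and 0.554 in sh-NC and 0.178, 0.218 and 0.276 in sh-KLF5, a log2 difference of -1.22. EGFR to ERBB2 was 1.51, 1.82 and 1.38 in sh-NC and 3.24, 2.57 and 2.37 in sh-KLF5, a log2 difference of 0.79. ERBB3 to ERBB2 was 0.115, 0.142 and 0.105 in sh-NC and 0.0512, 0.0572 and 0.0573 in sh-KLF5, a log2 difference of -1.12. The groups did not overlap for any of the 3 ratios, and the two-sided exact permutation p was 0.1 for each (0.1 after adjustment over the 3), the smallest that 3 against 3 libraries allow. For AREG to EREG and for EGFR to ERBB2 this outcome was fixed in advance. Both genes of each ratio were already separated between the groups, in opposite directions, so that these p-values add no support. Without library 1 of sh-KLF5 the log2 differences were -1.07, 0.66 and -1.07. The ratios themselves depend on the gene length used, while the log2 differences do not. With the longest transcript, EGFR to ERBB2 was 0.919, 1.11 and 0.84 in sh-NC, on both sides of 1, and 1.98, 1.57 and 1.44 in sh-KLF5.

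AREG and EREG lie 56.4 kb apart in the same orientation on chromosome 4, and BTC lies further along on the minus strand. Upstream of EREG are EPGN, which encodes the EGFR ligand epigen, and a cluster of CXCL chemokine genes. Of the 6 tested neighbours on the list for this region, 4 rose and none fell, against 6.04% of all tested genes higher and 6.85% lower, with a median log2 fold change of 1.35. All 4 were neutrophil-attracting chemokines. CXCL8 went from 136 ± 20.6 to 407 ± 150 normalized counts (log2 fold change 1.52, limma adjusted p 0.000147), CXCL3 from 26.1 ± 3.62 to 88.8 ± 25.7 (1.69) and CXCL2 from 106 ± 19.6 to 244 ± 59.4 (1.18). CXCL1 went from 141 ± 46.6 to 687 ± 311 (2.20, limma adjusted p 0.0116), a call that was lost without library 1 of sh-NC (adjusted p 0.11), library 2 of sh-NC (0.0642) or library 1 of sh-KLF5 (0.108). EPGN, between these genes and EREG, had a log2 fold change of 0.22 (limma adjusted p 0.335). AREG was thus lower while the 4 chemokine genes, 346 to 701 kb away from it, were higher. MTHFD2L (log2 fold change 0.01, limma adjusted p 0.979) and EREG, which also lie between them, were not called.

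ERBB2 lies on chromosome 17 beside genes that are often amplified with it in tumours. Of the 12 tested neighbours on the list for this region, 1 rose and 1 fell, with a median log2 fold change of -0.00. These counts are near the 6.04% of all tested genes that were higher and the 6.85% that were lower. GRB7, which encodes an adaptor that binds phosphorylated ERBB receptors and lies 7.5 kb beyond ERBB2, had 128, 120.2 and 119.9 normalized counts in sh-NC and 312, 370 and 182 in sh-KLF5. All sh-KLF5 libraries were higher, with library 3 the least so. The mean rose from 123 ± 4.33 to 288 ± 95.9 (log2 fold change 1.17, SE 0.22, limma adjusted p 0.00154), and single libraries left out gave 0.96 to 1.46. ERBB2 and GRB7 therefore had estimates of opposite sign, although ERBB2 itself did not pass the test. The lower gene was MED1, a Mediator subunit, with 3208 ± 72.5 and 2081 ± 316 (log2 fold change -0.63, limma adjusted p 0.00217). For the genes next to ERBB2, the log2 fold changes were 0.20 for STARD3, -0.11 for PGAP3 and -0.04 for MIEN1, with limma adjusted p-values of 0.328, 0.69 and 0.924, and the sign for MIEN1 turned without library 3 of sh-NC (0.12) or library 1 of sh-KLF5 (0.04). In sh-NC, the levels per kilobase in this region were 193 for ERBB2, 96.3 for STARD3, 87.3 for PGAP3, 74.3 for MIEN1 and 34.1 for GRB7, against 438 for MED1 and 620 for PSMD3 farther out.

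**Figure D4:**
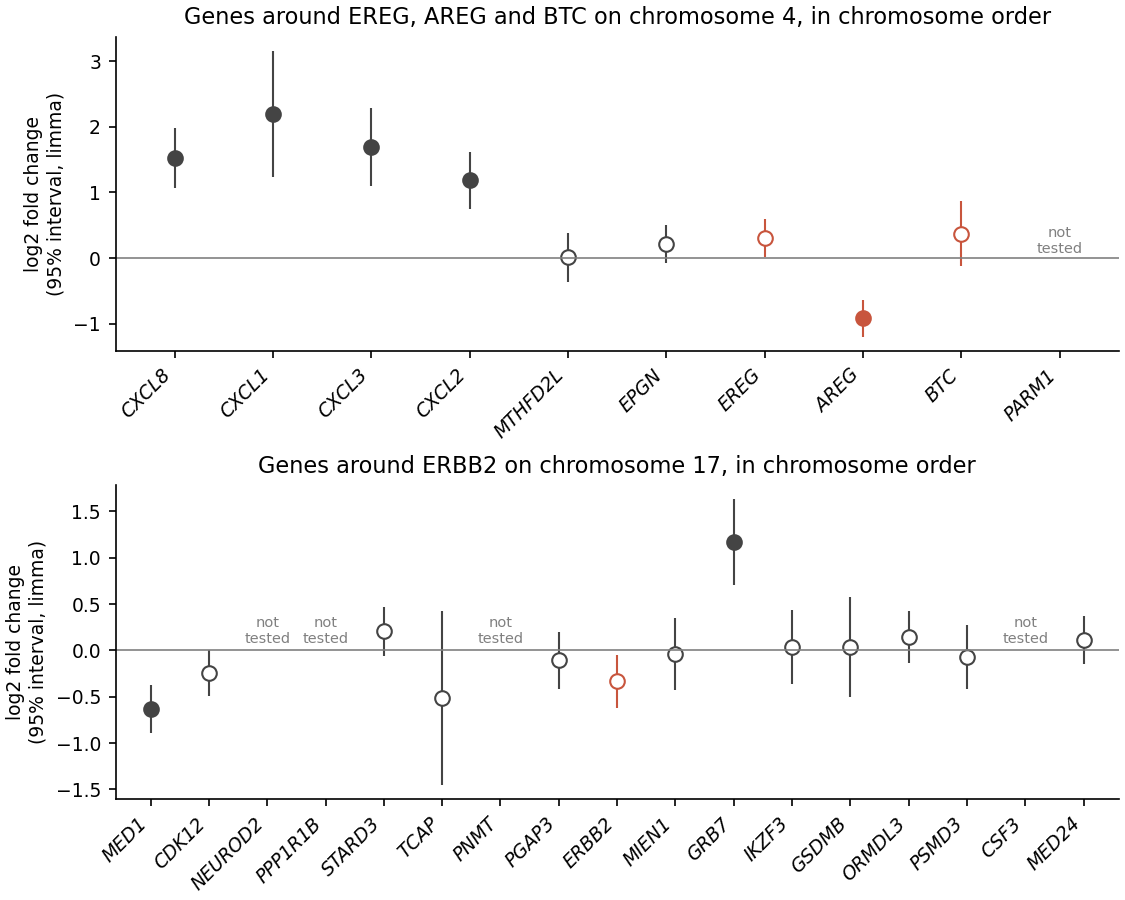
Log2 fold change (sh-KLF5 minus sh-NC, with the 95% interval from limma) of the genes around EREG, AREG and BTC on chromosome 4 and around ERBB2 on chromosome 17, in chromosome order. Members are in red and filled points have an adjusted p under 0.05. AREG, at -0.92, is lower while CXCL8, CXCL1, CXCL3 and CXCL2 are higher, and GRB7, at 1.17, is the highest of the genes around ERBB2.

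Other genes of the pathway were taken from lists by role, and each count below stands beside 6.04% of all tested genes that were higher and 6.85% that were lower. Of 5 further EGF-family ligands, 3 were tested and 0 passed limma with Benjamini-Hochberg adjustment (0 at an unadjusted p under 0.05, 0 with edgeR and 0 with DESeq2), with a median log2 fold change of 0.22. Among these, EPGN had 829 normalized counts per kilobase in sh-NC, and thus a level between those of EREG and AREG. Of 8 tested genes for ligand shedding, 2 rose and none fell (median 0.26). The protease gene ADAM9 went from 2323 ± 127 to 3296 ± 578 normalized counts (log2 fold change 0.49, limma adjusted p 0.0189) and RHBDF2, which encodes an iRhom cofactor of ADAM17, from 477 ± 47.5 to 773 ± 61.0 (0.70, adjusted p 0.00126). The ADAM9 call was lost without library 2 of sh-NC (adjusted p 0.0996) or library 3 of sh-NC (0.0949). The other 6 shedding genes did not pass. Among them, ADAM17 and ADAM10 overlapped between the groups, with log2 fold changes of 0.18 and 0.20 (limma adjusted p 0.347 and 0.348).

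Of 26 tested genes for the relay just below the receptors (adaptors, RAS, RAF, MEK, ERK, PI3K and AKT genes), 2 fell and none rose, with a median log2 fold change of -0.04. The share that fell is near the 6.85% of all tested genes. The count of none was also 0 with edgeR and DESeq2, and was 3 at an unadjusted p under 0.05. PIK3R1, the regulatory subunit of PI3K, went from 332 ± 40.7 to 216 ± 24.4 normalized counts (log2 fold change -0.62, limma adjusted p 0.0136), and PIK3CA, a catalytic subunit, from 1092 ± 81.3 to 831 ± 94.4 (-0.40, adjusted p 0.043). PIK3R1 was lost without library 1 of sh-NC (adjusted p 0.0892), library 2 of sh-NC (0.0816) or library 3 of sh-KLF5 (0.0512). PIK3CA was kept only when library 1 of sh-KLF5 was the one left out, and otherwise had limma adjusted p-values from 0.0643 to 0.21.

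Of 12 tested genes that hold the receptors back, 5 rose and 1 fell (median log2 fold change 0.11). LRIG1, a membrane protein that promotes the breakdown of ERBB receptors, had 148, 153 and 146 normalized counts in sh-NC and 272, 287 and 229 in sh-KLF5 (log2 fold change 0.81, limma adjusted p 0.00231). UBASH3B, a phosphatase known to oppose the CBL-driven degradation of EGFR, went from 691 ± 41.6 to 1191 ± 125 (0.78), and this role runs against the name of the list. The receptor phosphatase gene PTPRJ went from 1022 ± 15.1 to 1649 ± 98.9 (0.69). Smaller rises were seen for ERRFI1, the EGFR kinase inhibitor MIG6 (0.44, limma adjusted p 0.016), and for the phosphatase gene PTPN1 (0.42, adjusted p 0.0166), and CBL, a ubiquitin ligase for EGFR, fell by 0.43 on the log2 scale (adjusted p 0.0149). The ERRFI1 call was lost without each single sh-NC library (adjusted p 0.0674 to 0.0847), and those of PTPN1 and CBL without library 1 of sh-NC (0.0992 and 0.089) or library 2 of sh-NC (0.0985 and 0.105).

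Of 17 tested genes known as transcriptional output of ERK, 8 rose and 1 fell, with a median log2 fold change of 0.41 beside -0.00 for all genes. The other 8 did not pass (limma adjusted p 0.0689 to 0.817). Their log2 fold changes were 0.34 for DUSP4, 0.07 for DUSP5, -0.29 for DUSP6 and 0.18 for SPRY2. For SPRY4, ETV4, FOS and MYC they were 0.41, 0.24, 0.38 and 0.32. PHLDA1 had 906, 848 and 901 normalized counts in sh-NC and 2999, 2485 and 2244 in sh-KLF5 (log2 fold change 1.53, limma adjusted p 4.61e-07). EGR1, an immediate early transcription factor, had 565, 454 and 515 in sh-NC and 1112, 1351 and 1643 in sh-KLF5 (1.41, adjusted p 5.99e-06). FOSL1, an AP-1 subunit (1.09), SPRED1, an inhibitor of RAS-ERK signalling (1.05), and CCND1, the gene for cyclin D1 (0.80), also rose. SPRY1, a feedback inhibitor of receptor signalling, moved the other way, from 255, 186 and 216 normalized counts to 20.4, 19.4 and 8.02 (log2 fold change -3.79, limma adjusted p 5.17e-07).

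**Figure D5:**
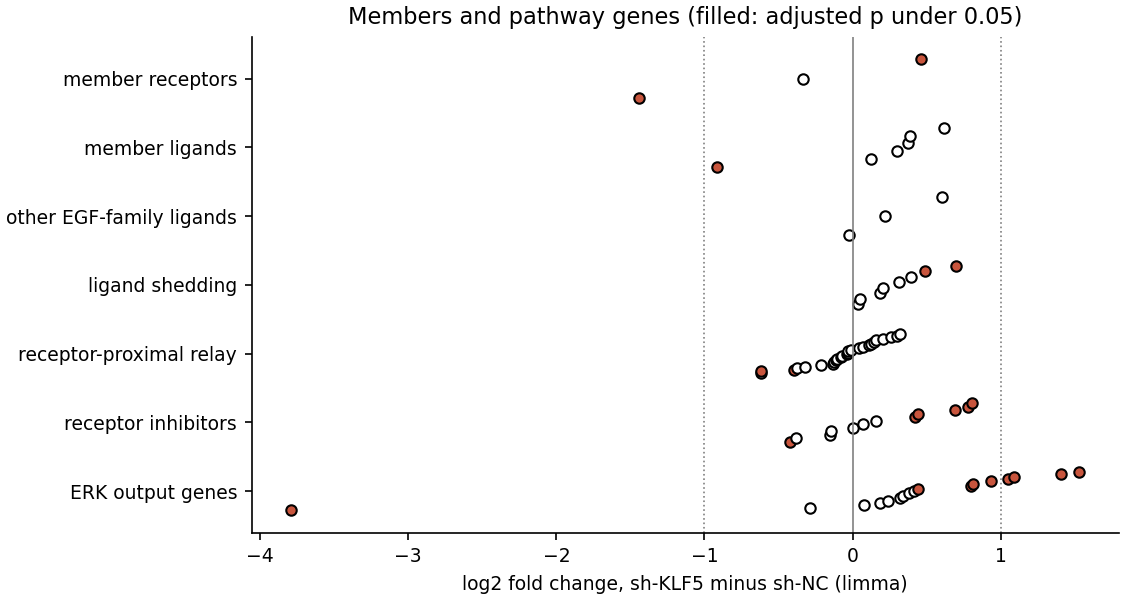
Log2 fold change (sh-KLF5 minus sh-NC, limma) of the members and of each pathway list, 1 point per tested gene, filled where the adjusted p is under 0.05. Dotted lines mark a log2 fold change of 1 in either direction. ERBB3 (-1.44) and SPRY1 (-3.79) lie beyond the lower line, and of the ERK output genes 4 lie beyond the upper one.

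As a description over the 6 libraries, the tested genes whose log2 values followed ERBB3 most closely were ZNF713 (Pearson r 0.998), HIP1 (0.998) and CBFA2T3 (0.997), and 437 genes had an r above 0.95. For ERBB2 they were NOB1 (0.996), UHRF1 (0.994) and DYNLL2 (0.993), with 197 genes above 0.95. The 6 points share the difference between the groups, so that any gene that differs between them can have a high r.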

How the data were processed

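RNA-seq libraries of sh-NC (n = 3) and sh-KLF5 (n = 3) SKOV3 cells were compared, with groups and replicate numbers taken from the sample titles. The name sh-NC is used here for the control, whose titles hold NC only. The authors deposited 1 table of normalized counts per gene, a signal that equals the read count divided by 1 size factor per library. The submitters' processing notes name HISAT2 2.0.5, featureCounts 1.5.0-p3, DESeq2 1.20.0 and hg38, without saying which step each served. Columns with the authors' group means, fold changes, p-values and adjusted p-values were not used. Division by the smallest value above 0 in a library recovered whole reads for 100% of the values (tolerance 1e-06), and the size factors matched the median-of-ratios factors of those reads. Coordinates, exonic lengths and overlaps came from GENCODE release 29, which matched all 29185 genes.

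The test was limma (version 3.58.1, R 4.3.3) with the trend and robust options, on log2(normalized count + 1). Genes were first filtered by filterByExpr of edgeR (minimum count 10), and 15803 genes passed. Fold changes on this scale understate those of low genes. P-values were adjusted by Benjamini-Hochberg over all tested genes, and a gene was called at an adjusted p under 0.05, with a log2 fold change past 1 counted apart. Alternatives were edgeR 4.0.16 with TMM and DESeq2 1.42.0 on the recovered reads, other scalings, pseudocounts (0.1 and 5) and filters, unadjusted p-values, a replicate block and leaving out each library. Scripts were tested on simulated data.

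The members and gene lists were chosen with earlier results of these data known. Named were all members and KLF5, up to 6 genes per list with an adjusted p under 0.05 by smallest p, 4 neighbours of ERBB2 (STARD3, PGAP3, MIEN1 and GRB7), and the 3 genes most correlated with ERBB2 and with ERBB3. EPGN, PSMD3, MTHFD2L, ADAM10, ADAM17, the ERK output genes that did not pass and the cell type markers were named after their values were seen. Of the 10 members, 8 had a RefSeq promoter window, and ERBB3 and NRG1 had none.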

Additional observations from a re-analysis of the deposited data

How the results depend on the processing

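ERBB3 and AREG kept an adjusted p under 0.05 and their direction in every alternative run, with log2 fold changes from -0.92 to -0.91 for AREG across the alternatives that keep all libraries. The number of members higher at an adjusted p under 0.05 (1, EGFR) became 2 with DESeq2, 2 without a filter, 2 with the replicate block and 4 at unadjusted p-values, and 0 to 2 when single libraries were left out, 0 without library 1 of sh-NC and 2 without library 2 of sh-KLF5. The number called lower with the fold threshold (1) was 1 to 2 with a library left out. For pathway genes lower (5), unadjusted p-values gave 9, and leaving out a library gave 2 (library 1 or 2 of sh-NC) to 8 (library 1 of sh-KLF5), with 3 without library 3 of sh-KLF5. All genes called lower numbered 533, against 811 when no gene was filtered out and 231 when each library had to hold 10 reads or more. These filters test different sets of genes, and SPRY1, with 8 reads in library 3 of sh-KLF5, was not tested under the last one. All genes called higher numbered 301, and 241 to 381 in the alternatives that keep all libraries. KLF5 ranged from -1.62 to -1.48 with a library left out. MIEN1 ranged from -0.15 to 0.12 with a library left out, and turned positive without library 3 of sh-NC (0.12) and without library 1 of sh-KLF5 (0.04). The cause of these changes was not tested. PIK3CA missed 0.05 with library size as the only scaling (adjusted p 0.058).

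Libraries with the same number did not deviate together (r 0.059, 0.033 and 0.050), although each correlated best with its own number, as a hint from the data. The replicate block brought HBEGF under 0.05 (limma adjusted p 0.0163) and CXCL1 above it (0.211). No other call changed among the members, KLF5, the called pathway genes named above, STARD3, PGAP3, MIEN1 and GRB7. With the longest transcript as the length, the level per kilobase in sh-NC moved by more than its SD for 8 of 10 members. For BTC both lengths are the same, and ERBB4 was near 0. With 3 libraries per group, differences of the size seen for ERBB2 and EREG did not pass the test, and ERBB4 was not detectable at this depth.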
